A study of Homo sapiens with 4 samples.

Results

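The RNA-seq values of the genes that handle cellular zinc were examined in SKOV3, a human cell line established from an ovarian cancer, as cells on TCP (a tissue culture plate) and as tumor spheroids on polymer X, a polymer thin film coating. All genes with a symbol of the SLC39A, SLC30A or MT1 families, MT2A and the transcription factor gene MTF1 were taken from the table of 19475 symbols. This gave 34 members, comprising 14 importers, 10 exporters, 9 metallothioneins and MTF1. Where a symbol had several transcripts, the one with the highest mean FPKM stood for it.

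The labels give 2 libraries of cells on TCP at day 0 and 2 libraries of spheroids on polymer X at day 8, and name no transgene or drug for either group. In the methods of the study, spheroids were grown with serum replacement and taken apart with accutase at intervals, whereas SKOV3 stocks were kept with fetal bovine serum. The labels state a medium with serum replacement for every library. Substrate, time in culture and possibly the medium changed together, so their effects cannot be told apart. Neither the labels nor the file say whether the 2 libraries of a group came from separate cultures, so the p-values measure only the spread between these libraries, which may be technical. Less RNA per cell and fewer cells with that RNA cannot be told apart in such bulk samples.

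Zinc is a cofactor of many enzymes and transcription factors, and cells keep its free concentration in the cytosol low. SLC39A proteins, also called ZIPs, bring zinc into the cytosol from outside the cell or from organelles. Most SLC30A proteins, also called ZnTs, carry it out of the cytosol. The importer and exporter classes used here follow the gene symbols. Metallothioneins are small cysteine-rich proteins that bind zinc, copper and cadmium. MTF1 senses zinc and binds metal response elements in the promoters of metallothionein genes and of SLC30A1, and glucocorticoids and cytokines are other known inducers of metallothioneins.

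The promoters of MT2A, MT1X, MT1B and SLC30A1 are shown because the first 3 are the metallothioneins with measurable levels and the last is the zinc exporter gene that MTF1 is known to regulate. Each sequence runs from 250 bases before to 50 bases after the start site given by RefSeq on GRCh38.p14, 5′ to 3′ on the strand of the gene. Capitals mark matches to the metal response element core, searched as TGCACNC and TGCGCNC on both strands. The 3 metallothionein promoters lie on the plus strand at chr16:56608334-56608633, chr16:56682220-56682519 and chr16:56651636-56651935, in that order, and that of SLC30A1 lies on the minus strand at chr1:211579112-211579411.
MT2A: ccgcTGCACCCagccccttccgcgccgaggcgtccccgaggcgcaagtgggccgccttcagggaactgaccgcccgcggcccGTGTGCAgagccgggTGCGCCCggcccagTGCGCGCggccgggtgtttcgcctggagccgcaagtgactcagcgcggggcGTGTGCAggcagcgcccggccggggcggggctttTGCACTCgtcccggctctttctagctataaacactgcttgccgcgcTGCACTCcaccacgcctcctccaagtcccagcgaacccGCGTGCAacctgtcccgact
MT1X: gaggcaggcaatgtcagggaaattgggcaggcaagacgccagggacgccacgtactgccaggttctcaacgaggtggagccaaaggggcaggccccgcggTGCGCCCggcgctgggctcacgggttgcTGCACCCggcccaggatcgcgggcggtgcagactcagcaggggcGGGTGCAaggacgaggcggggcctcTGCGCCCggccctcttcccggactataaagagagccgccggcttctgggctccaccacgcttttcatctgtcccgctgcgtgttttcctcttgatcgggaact
MT1B: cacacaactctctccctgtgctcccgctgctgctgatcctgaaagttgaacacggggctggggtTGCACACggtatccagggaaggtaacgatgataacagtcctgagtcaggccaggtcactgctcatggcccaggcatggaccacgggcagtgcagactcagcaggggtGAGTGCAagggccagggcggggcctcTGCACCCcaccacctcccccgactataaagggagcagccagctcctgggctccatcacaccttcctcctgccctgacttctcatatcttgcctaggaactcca
SLC30A1: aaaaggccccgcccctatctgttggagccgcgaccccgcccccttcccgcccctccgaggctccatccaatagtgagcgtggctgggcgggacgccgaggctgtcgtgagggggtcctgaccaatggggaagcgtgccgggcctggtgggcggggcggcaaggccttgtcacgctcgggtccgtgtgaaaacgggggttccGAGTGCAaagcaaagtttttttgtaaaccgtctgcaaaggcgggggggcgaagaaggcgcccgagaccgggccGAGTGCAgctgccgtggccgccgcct

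The promoter of MT2A held 8 matches, that of MT1X 4, that of MT1B 3 and that of SLC30A1 2. Among 35116 RefSeq promoters of the same length, 29.6% held at least 1 match, 8.6% at least 2, 2.3% at least 3, 0.601% at least 4 and 0.0199% at least 8. In the 3 metallothionein promoters shown, a match on the strand of the gene began at position -53 or -54, counted from 0 at the start site, and a match on the opposite strand lay close upstream of it (at -88 in MT2A, -78 in MT1X and -79 in MT1B). The letters TATAAA began at -29 in MT2A and at -30 in MT1X and MT1B, and they did not occur in the window of SLC30A1. A promoter sequence was matched for 26 of the 34 members. The metallothioneins were the class with the most matches, with at least 3 in 4 of 4 promoters, including 8 in MT1H. At least 1 match was present for 7 of 12 importers, none of which had more than 1, and for 5 of 9 exporters, of which SLC30A2 had 3. Where a member had several promoters, the one with the most matches was counted. These counts per gene therefore cannot be set against the percentages of single promoters given above. The promoter of MTF1 itself held 0. These matches describe the letters of the windows and are not measured binding sites.

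**Figure D1:**
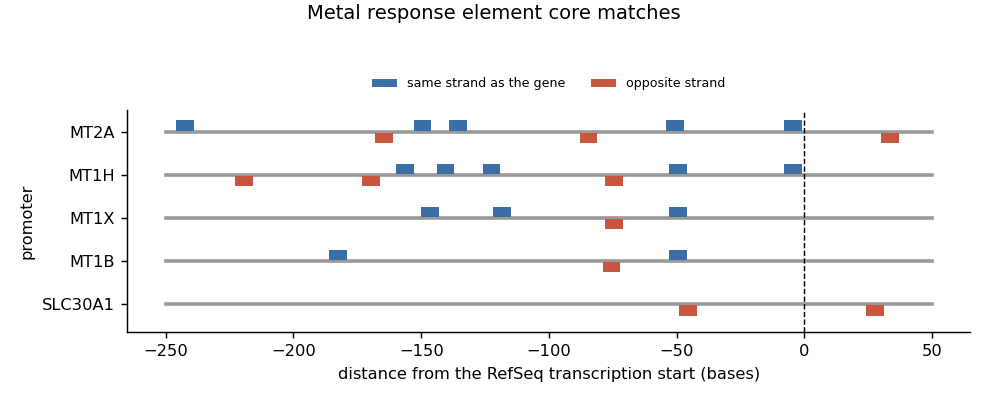
Positions of the metal response element core matches in 5 promoters, as distance in bases from the RefSeq start site (dashed line), with blue boxes on the strand of the gene and red boxes on the opposite strand. MT2A and MT1H each carry 8 matches spread over the window, against 2 in SLC30A1.

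The values are FPKM, tag counts corrected for transcript length and for library size, and the libraries held from 38403000 to 44916000 tags. Of the 34 members, 20 reached an FPKM of 1 in 2 or more libraries and were tested in 1 fit of 11964 genes on log2(FPKM + 1). Below, a gene rose or fell when its adjusted p was under 0.05, and it is said to be called when its level also differed by at least 2-fold on that scale. In all tested genes, 20.2% were called, 10.7% higher and 9.45% lower on polymer X, while 37.4% rose and 43.6% fell. Among the 20 tested members, 1 was called higher (MT1B), 1 was called lower (MT2A), 5 rose, 9 fell and 6 did not pass. Thus 25% of the tested members rose and 45% fell, against 37.4% and 43.6% of all tested genes. The 20 tested members reached an FPKM of 1 in every library, and the 14 members under the filter are described by their tags.

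**Figure D2:**
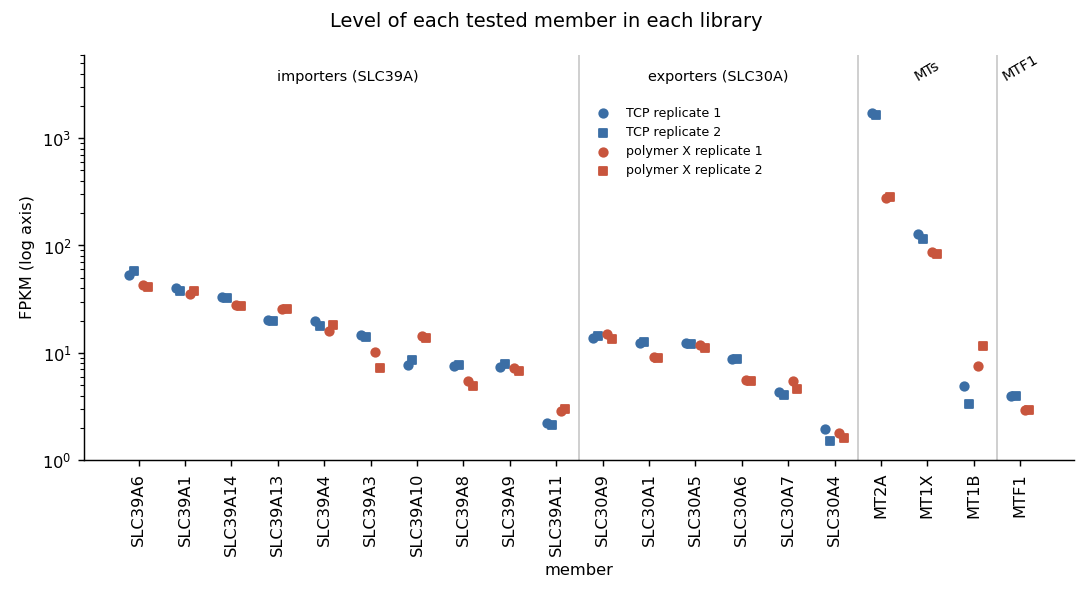
FPKM on a log axis of each tested member in each of the 4 libraries, with blue for TCP and red for polymer X, and circles and squares for replicates 1 and 2. MT2A stands above all other members in every library and drops from 1712 and 1627 to 280 and 282, while most transporters lie between 1 and 60 FPKM in both groups.

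The metallothionein transcripts as a sum were 4.77-fold lower on polymer X, and almost all of this difference came from MT2A. MT2A fell 5.94-fold and MT1X fell less, while MT1B, a minor transcript, rose. The other 6 metallothioneins were at or near 0 in both groups.

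MT2A (NM_005953), the main metallothionein of most human tissues, is listed on hg19 at chr16:56642445-56643409. Its FPKM was 1712 and 1627 in the TCP libraries and 280 and 282 in the polymer X libraries. The groups were far apart, and the libraries of each group lay close together. Mean FPKM was 1669 ± 60.6 (SD, n = 2) on TCP and 281 ± 1.72 (SD, n = 2) on polymer X, so that the level decreased by 83.2%. The log2 fold change was -2.57 with a standard error of 0.07 and an adjusted p of 3.3e-09. These values rest on 29394 and 32659 tags on TCP and 5005 and 5131 tags on polymer X, so counting error is small. Among all symbols ranked by FPKM, MT2A was number 6 in both TCP libraries and number 98 and 93 in the polymer X libraries. In the 1131 genes called lower, it had the 40th largest fall.

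MT1X (NM_005952), an inducible metallothionein of the same cluster at chr16:56716382-56718108, had an FPKM of 127 and 116 on TCP and 87.5 and 83.9 on polymer X. The groups did not overlap, and both polymer X values were lower. The fall was 1.41-fold in mean FPKM, from 121 ± 8.05 to 85.7 ± 2.56 (SD, n = 2 each), with a log2 fold change of -0.49, a standard error of 0.06 and an adjusted p of 6.5e-05. Under quantile normalization it was -0.16, with an adjusted p of 0.021. Because MT2A fell further, the ratio of MT2A to MT1X in FPKM went from 13.5 and 14.1 in the TCP libraries to 3.20 and 3.36 in the polymer X libraries.

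MT1B (NM_005947), at chr16:56685811-56687116, moved the other way. Its FPKM was 4.86 and 3.33 on TCP and 7.53 and 11.7 on polymer X, so both polymer X libraries were higher, although the replicates of each group were spread. Mean FPKM was 4.09 ± 1.09 and 9.60 ± 2.93 (SD, n = 2 each). The log2 fold change was 1.05 with a standard error of 0.18 and an adjusted p of 0.00051. It was called higher by a small margin, and its log2 fold change was 0.83 without TCP replicate 2 and 0.76 without polymer X replicate 2, both under the 2-fold minimum. In tags, 70 and 56 on TCP faced 113 and 178 on polymer X, a depth-adjusted ratio of 2.38 with an exact 95% interval of 1.93 to 2.96 that covers counting error only.

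Metallothionein genes resemble each other, so tags can be shared between them. In GENCODE transcripts, 4.88% of the 50-base words of MT2A, 16% of those of MT1X and 0% of those of MT1B also occurred in another gene. No 100-base word of these 3 did. Genes that overlap each of them were left out of this search. The GENCODE transcript of MT2A had 786 bases, against 447 in the transcript whose tags were counted. These lengths were 450 and 399 bases for MT1X and 380 and 375 for MT1B. In the same annotation, MT1B overlaps AC026461.2 and MT1X overlaps AC026461.1 in position, and tags of each pair cannot be separated by the counting used. The part of these overlapping genes in the MT1B and MT1X values was not tested.

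The remaining metallothioneins gave few tags. MT1A had 7 tags in each TCP library and 2 and 1 on polymer X, a ratio of 0.221 (exact 95% interval 0.0408 to 0.793), where both polymer X libraries are at or under the floor of 3 tags. MT1G had 2 and 5 tags on TCP and 0 in both polymer X libraries. The TCP replicate 1 of MT1G is itself under the floor of 3 tags, so no least fall is given. Of the 50-base words, 5.76% of those of MT1A and 20.2% of those of MT1G also occurred in another gene, most often MT1X. No 100-base word of MT1A or MT1G did. Whether tags of MT1X entered these small counts was not tested. For MT1F, 0 and 2 tags on TCP were followed by 2 and 5 on polymer X, with an interval of the ratio from 0.688 to 35.7. MT1E and MT1H had at most 1 tag in any library and MT1M had 0. For a transcript of 400 bases, 3 tags correspond to an FPKM of 0.167 to 0.195.

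The summed metallothionein FPKM was 1845 and 1746 on TCP and 375 and 378 on polymer X. Both TCP libraries were thus several-fold above both polymer X libraries. Means were 1796 ± 69.6 and 377 ± 2.13 (SD, n = 2 each). The exact permutation test gave a two-sided p of 0.33, the smallest possible for 2 libraries against 2. Without MT2A, the sum was 132 and 120 on TCP and 95.4 and 95.9 on polymer X.

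The make-up of this pool also differed. MT2A made up 92.8% and 93.1% of the summed FPKM on TCP and 74.6% in both polymer X libraries. The share of MT1X went from 6.88% and 6.62% to 23.3% and 22.2%, although its own level fell. MT1B took 0.264% and 0.190% of the sum on TCP and 2.01% and 3.09% on polymer X.

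**Figure D3:**
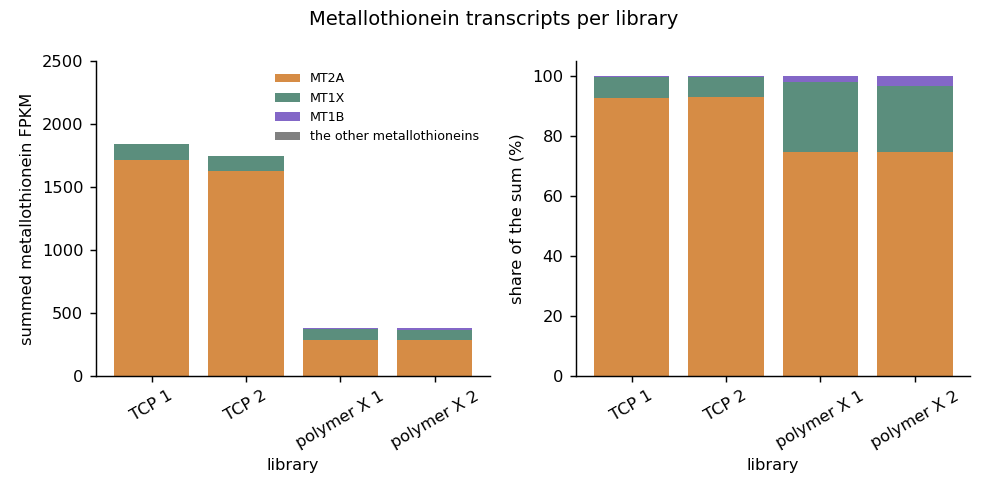
Stacked bars of metallothionein FPKM in each library (left) and of each gene as a percentage of the library's metallothionein sum (right). The sum drops from 1845 and 1746 to 375 and 378, and the MT2A share from about 93% to 74.6%.

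MTF1 (NM_005955), the zinc sensor known to regulate metallothionein genes, had an FPKM of 3.94 and 3.95 on TCP and 2.96 and 2.92 on polymer X. Its transcript was lower in both polymer X libraries, with a log2 fold change of -0.33, a standard error of 0.07 and an adjusted p of 0.0020 (-0.50 under quantile normalization). SLC30A1 (NM_021194), which carries zinc out across the plasma membrane and is another known MTF1 target, had an FPKM of 12.5 and 12.6 on TCP and 9.12 and 8.89 on polymer X. It also fell, by 0.44 on the log2 scale (standard error 0.06, adjusted p 0.00011). MT2A, MT1X, SLC30A1 and MTF1 were all lower on polymer X, and MT1B was higher. Of all tested genes, 43.6% fell and 37.4% rose. The part of MTF1 in the levels of the other genes was not tested. Over the 3 tested metallothioneins the median change, which is that of MT1X, was -0.49 on the log2 scale (-0.16 under quantile normalization), and over all tested genes it was -0.058.

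Among the importers, 10 of 14 were tested, of which 3 rose, 4 fell and 3 did not pass, and none was called. Their log2 fold changes ran from -0.68 to 0.72, with a median of -0.12 that became 0.022 under quantile normalization. The largest rise was that of SLC39A10 and the largest fall that of SLC39A3.

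SLC39A10 (NM_020342, chr2:196521852-196602426), a plasma membrane importer, had an FPKM of 7.67 and 8.52 on TCP and 14.2 and 13.7 on polymer X. Both spheroid libraries were well above both TCP libraries. The mean rose 1.72-fold, with a log2 fold change of 0.72, a standard error of 0.07 and an adjusted p of 8.6e-06. SLC39A6 (NM_012319), its close relative and known partner in a heteromeric transporter, was the most abundant tested importer and moved in the opposite direction. Its FPKM was 53.1 and 57.3 on TCP and 43.1 and 40.7 on polymer X, so both polymer X values were lower. The fitted change was -0.39 on the log2 scale (standard error 0.06, adjusted p 0.00026) and shrank to -0.086 with an adjusted p of 0.21 under quantile normalization. The ratio of SLC39A10 to SLC39A6 in FPKM was 0.145 and 0.149 on TCP and 0.330 and 0.335 on polymer X.

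SLC39A13 and SLC39A11, both of intracellular membranes, were the other importers that rose. SLC39A13 (NM_001330245), which releases zinc from vesicles of the secretory pathway, had an FPKM of 20.3 and 19.7 on TCP and 25.3 and 25.5 on polymer X. Its log2 fold change was 0.33 (standard error 0.06, adjusted p 0.00040) and 0.53 under quantile normalization. SLC39A11 (NM_001159770) rose from 2.23 and 2.11 to 2.88 and 2.98, a log2 fold change of 0.31 with an adjusted p of 0.0039, which was 0.072 with an adjusted p of 0.42 under quantile normalization.

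The other importers that fell besides SLC39A6 were SLC39A3, SLC39A8 and SLC39A14. SLC39A3 (NM_144564), a surface importer, had an FPKM of 14.6 and 14.0 on TCP and 10.2 and 7.18 on polymer X. The groups did not overlap, but the polymer X replicates were further apart than for most members. Its log2 fold change was -0.68 with a standard error of 0.12 and an adjusted p of 0.00063. SLC39A8 and SLC39A14 are related transporters that also carry manganese, iron and cadmium, and both were lower on polymer X. SLC39A8 (NM_001135146) had an FPKM of 7.49 and 7.77 on TCP and 5.52 and 4.94 on polymer X (log2 fold change -0.47, adjusted p 0.00024). SLC39A14 (NM_001128431) had an FPKM of 32.9 and 32.7 on TCP and 27.7 and 27.4 on polymer X. Its log2 fold change was -0.24 with a standard error of 0.05 and an adjusted p of 0.0023, and it was -0.0005 with an adjusted p of 0.99 under quantile normalization.

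The importers SLC39A1, SLC39A4 and SLC39A9 did not pass the test. SLC39A1 (NM_001271958), a widely expressed surface importer, had an FPKM of 40.0 and 37.7 on TCP and 35.2 and 37.3 on polymer X (log2 fold change -0.10, standard error 0.06, adjusted p 0.16; 0.20 with an adjusted p of 0.014 under quantile normalization). SLC39A4 (NM_001280557), the importer of intestinal zinc uptake, had an FPKM of 19.7 and 17.8 on TCP and 15.9 and 18.3 on polymer X, and the groups overlapped. Its log2 fold change was -0.13 with a standard error of 0.08 and an adjusted p of 0.16, and without polymer X replicate 2 it was -0.23 with an adjusted p of 0.033. The level belongs to a listed transcript of 667 bases, and the longer transcripts of SLC39A4 had an FPKM of 5.07 to 6.18. SLC39A9 had an FPKM of 7.40 and 7.79 on TCP and 7.19 and 6.80 on polymer X (log2 fold change -0.10, adjusted p 0.18).

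Of the importers under the filter, SLC39A5 had 75 and 56 tags on TCP and 36 and 43 on polymer X, and SLC39A2 had 0 to 2 tags per library. SLC39A12, a transporter of the brain, was listed at 0. SLC39A7, the importer that releases zinc from the endoplasmic reticulum and is used widely across cell types, was also listed at 0 in all libraries. Each of its rows is listed with 6 copies in the annotation, and another of its transcripts is placed on an alternative haplotype of the chromosome 6 region. In the table, 487 of the 898 rows with more than 1 copy (54.2%) were at 0 in all 4 libraries, against 4229 of the 49180 rows with 1 copy (8.6%). The listed 0 for SLC39A7 is therefore not read here as a level.

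**Figure D4:**
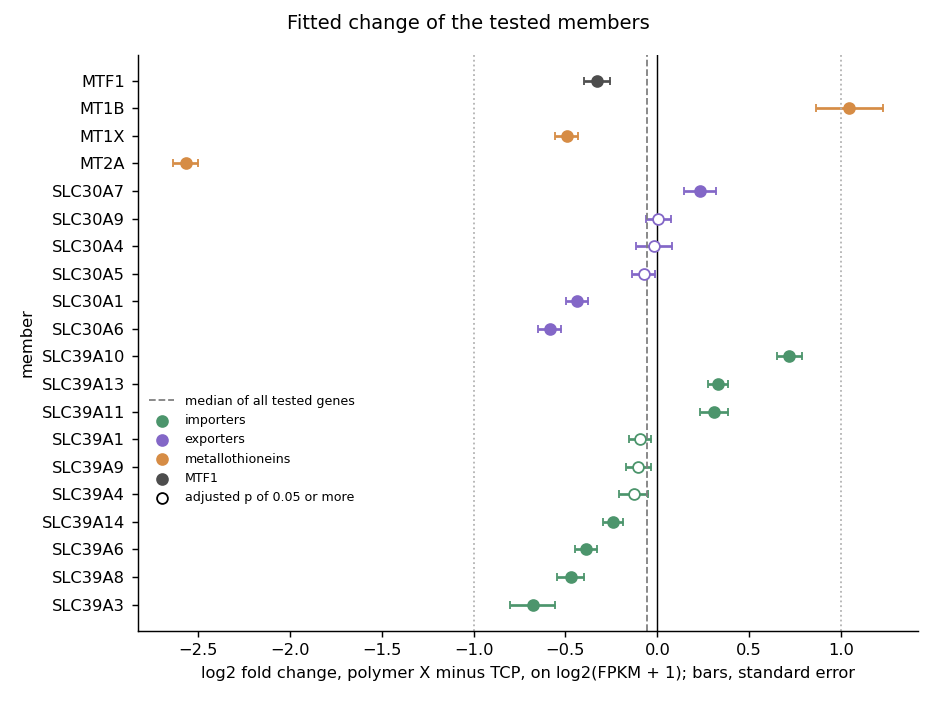
Fitted log2 fold change of polymer X minus TCP with its standard error for the 20 tested members, colored by class, with filled points for an adjusted p under 0.05. The dotted lines mark 2-fold, which only MT2A (-2.57) and MT1B (1.05) pass, and the dashed line marks the median of all tested genes at -0.058.

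Among the exporters, 6 of 10 were tested, of which 1 rose, 2 fell and 3 did not pass, with a median log2 fold change of -0.046 and a range of -0.59 to 0.23. None was called. SLC30A1, described above with MTF1, was one of those that fell.

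SLC30A5, SLC30A6 and SLC30A7 supply zinc to enzymes of the early secretory pathway, and SLC30A5 and SLC30A6 act there as a heterodimer. SLC30A6 (NM_001193514) had an FPKM of 8.81 and 8.71 on TCP and 5.57 and 5.43 on polymer X, and it showed the largest fall of the tested exporters. Its log2 fold change was -0.59 with a standard error of 0.06 and an adjusted p of 2.2e-05. SLC30A5 (NM_022902), its partner, had an FPKM of 12.3 and 12.0 on TCP and 11.8 and 11.2 on polymer X (log2 fold change -0.08, standard error 0.06, adjusted p 0.29; -0.23 with an adjusted p of 0.019 for summed transcripts). SLC30A7, the Golgi exporter, had an FPKM of 4.28 and 4.02 on TCP and 5.51 and 4.61 on polymer X, with a log2 fold change of 0.23, a standard error of 0.09 and an adjusted p of 0.033. That rise did not pass with no filter on low values, under quantile normalization, with the longest transcript, or without TCP replicate 2 or polymer X replicate 1.

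SLC30A9 (NM_006345), which exports zinc from mitochondria, was the most abundant exporter, with an FPKM of 13.8 and 14.4 on TCP and 14.9 and 13.5 on polymer X. The groups overlapped, and the log2 fold change was 0.0048 with a standard error of 0.07 and an adjusted p of 0.95, against 0.15 with an adjusted p of 0.045 under quantile normalization. SLC30A4, of endosomes and lysosomes, had an FPKM of 1.96 and 1.52 on TCP and 1.77 and 1.62 on polymer X, with an adjusted p of 0.87. Under quantile normalization its log2 fold change was -0.34 with an adjusted p of 0.011. SLC30A2, the exporter of mammary secretion, SLC30A8, that of insulin granules, and SLC30A10, a manganese exporter, were listed at 0 in all 4 libraries. SLC30A3, that of synaptic vesicles, had 0 to 3 tags per library.

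As sums, importers, without a level for SLC39A7, had an FPKM of 206 in both TCP libraries and 188 and 185 on polymer X, and exporters had 53.7 and 53.2 on TCP and 48.7 and 45.2 on polymer X. Both sums were lower on polymer X in both libraries. The exact permutation test gave a two-sided p of 0.33 for each sum, the smallest possible for 2 libraries against 2. The importer sum includes SLC39A6 and SLC39A14, whose falls did not pass under quantile normalization. Neither sum was computed under another normalization. The ratio of the importer sum to the exporter sum was 3.84 and 3.87 on TCP and 3.85 and 4.10 on polymer X, so these ratios overlapped. The exporter sum includes SLC30A9, which exports zinc from mitochondria. The sums and their ratio therefore do not measure zinc flow into or out of the cytosol.

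The table lists 95 transcript rows for the 34 members, and 23 members had several. Transcripts of a gene share most of their tags, so they are not independent measurements. For SLC30A6, 8 transcripts gave log2 ratios of mean FPKM from -0.68 to -0.64, and for SLC39A10 both transcripts gave 0.78 to 0.80. SLC39A14 was less uniform, with 9 of its 10 transcripts between -0.25 and -0.22 and NM_001135154, of 1752 bases, at -0.67. For SLC39A3, NM_144564 gave -0.72 and the longer NM_213568 gave -1.20. The direction depended on the transcript for SLC39A9 (-0.12 to 0.23) and SLC30A4 (-0.03 to 0.46). The fitted log2 fold change of SLC30A4 was 0.28 with an adjusted p of 0.017 when the longest transcript was used.

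**Figure D5:**
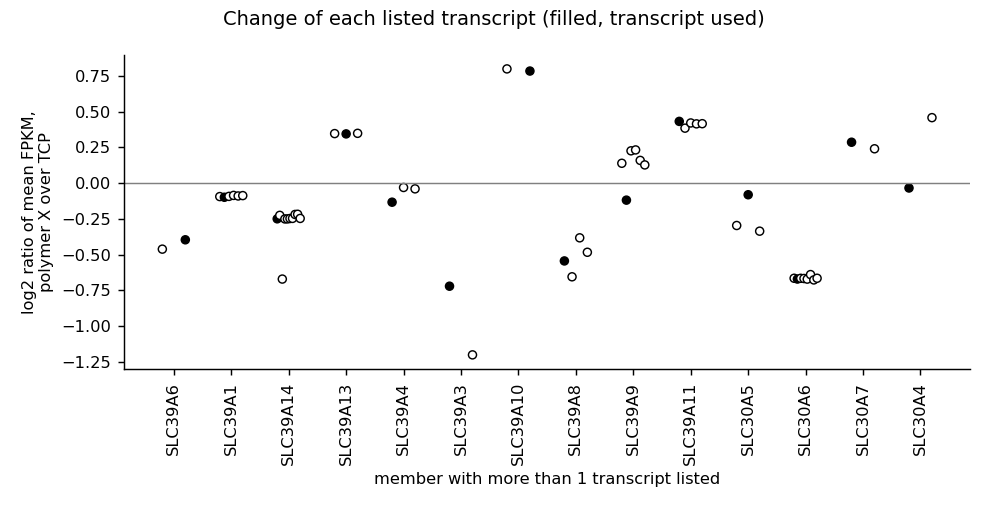
Log2 ratio of mean FPKM, polymer X over TCP, of every listed transcript of the tested members with more than 1 transcript; filled points are the transcripts used. Transcripts of most members lie together, whereas SLC39A9 and SLC30A4 have transcripts on both sides of 0 and NM_001135154 of SLC39A14 lies apart at -0.67.

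Other genes of metal handling and of metallothionein control were read from lists, whose counts stand against 37.4% that rose and 43.6% that fell over all tested genes. Of 10 other metallothionein loci, 3 were in the table and none passed the filter, with MT3 at 0 to 0.33 FPKM and MT4 and MT1HL1 at 0. Of 12 copper handling genes, 4 rose and 7 fell (33.3% and 58.3%), with a median log2 fold change of -0.28. SCO1, which helps to load copper into cytochrome oxidase, had an FPKM of 15.5 and 14.5 on TCP and 7.03 and 6.96 on polymer X. It was called lower by a small margin (log2 fold change -1.0027, adjusted p 5.4e-07), as were 9.45% of all tested genes. Of 7 other tested genes of zinc and manganese handling, 2 rose and 2 fell (28.6% each), none was called, and the median was -0.036. One of those that rose, SLC40A1, passed the filter only through the polymer X group. Its FPKM was 0.88 and 0.639 on TCP and 2.59 and 2.26 on polymer X.

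Zinc-dependent enzymes of the cell surface and secretory pathway, which receive zinc there, gave 5 that rose and 1 that fell of 6 tested (83.3% and 16.7%, against 37.4% and 43.6% of all tested genes), with a median log2 fold change of 1.05. One of those that rose, ENPP2, passed the filter only through the polymer X group, with an FPKM of 0.269 and 0.187 on TCP and 1.49 and 1.29 on polymer X. The carbonic anhydrases CA9 (5.14, adjusted p 2.1e-10) and CA12 (3.08, adjusted p 1.2e-09), which are also known hypoxia-responsive genes, and NT5E (1.13, adjusted p 1.9e-07), the ectonucleotidase CD73, were called higher. Over all tested genes, 10.7% were called higher. CA9 had an FPKM of 3.85 and 3.32 on TCP and 152 and 169 on polymer X, and CA12 had 18.0 and 19.2 on TCP and 156 and 174 on polymer X.

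Of 10 oxidative and metal stress genes, 1 rose and 8 fell (10% and 80%, against 37.4% and 43.6% of all tested genes), with a median log2 fold change of -0.88. GCLM (-1.96), NQO1 (-1.95), TXNRD1 (-1.65) and SLC7A11 (-1.18) were called lower, as were 9.45% of all tested genes, with adjusted p of 9.7e-09, 6.8e-09, 8.5e-09 and 3.7e-07. These encode proteins of glutathione synthesis, quinone reduction, thioredoxin reduction and cystine uptake, and are known targets of NRF2. HMOX1, SRXN1, HSPA1A and HSPA1B fell without being called, and GCLC did not pass (adjusted p 0.056). OSGIN1 was the gene that rose (log2 fold change 0.98, adjusted p 2.4e-05). NRF2 activity was not tested.

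Genes known to respond to glucocorticoids did not move together. Of 8 tested, 4 rose and 4 fell (50% each), with a median log2 fold change of 0.033. KLF9, which rose, passed the filter only through the polymer X group. Its FPKM was 0.961 and 1.02 on TCP and 2.43 and 2.19 on polymer X. SGK1, which fell, passed it only through the TCP group. The FPKM of SGK1 was 7.62 and 7.65 on TCP and 1.25 and 0.924 on polymer X. TSC22D3 (1.59), PER1 (1.30) and ERRFI1 (1.07) were called higher, whereas SGK1 (-2.05), DUSP1 (-1.64) and FKBP5 (-1.26) were called lower. Over all tested genes, 10.7% were called higher and 9.45% lower. Among 5 cytokine and STAT3 genes, 3 rose and 2 fell (60% and 40%). IL6 (-3.20, adjusted p 1.2e-09) was called lower and SOCS3, a feedback inhibitor induced by STAT3 (1.05, adjusted p 4.1e-07), was called higher. The part of any of these genes in the metallothionein values was not tested.

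The label of ovarian cancer cells was checked against markers. Of 8 carcinoma markers, ERBB2, KRT8, KRT18 and PAX8 were at 48.8 to 913 FPKM in every library, EPCAM was at 0.104 to 1.39, and KRT19, WT1 and MUC16 did not pass the filter. ERBB2 and PAX8 were called higher, from means of 202 to 887 and of 49.7 to 105 FPKM, while KRT8 (265 to 144) and KRT18 (122 to 89.5) fell. EPCAM was also called higher but passed the filter only through the polymer X group. The summed FPKM of the list was 632 and 647 on TCP and 1253 and 1203 on polymer X, and without ERBB2 it was 434 and 441 on TCP and 340 and 342 on polymer X. Of 4 fibroblast markers, COL3A1 (0 and 0.041 on TCP, 5.26 and 4.55 on polymer X) and DCN (0.025 and 0, 7.26 and 6.20) were higher, having passed the filter only through polymer X, COL1A1 fell and PDGFRB stayed at or under 0.115 FPKM, with list sums of 8.34 and 8.60 on TCP and 16.4 and 14.5 on polymer X. The 3 leukocyte and 3 endothelial markers did not pass the filter, with CD3E at 0 in all libraries. Their summed FPKM was higher on polymer X, at 0.501 and 0.708 against 0.039 and 0.073 on TCP for leukocytes (mainly PTPRC) and at 0.617 and 0.489 against 0.009 and 0.019 for endothelium (mainly PECAM1). The part of these marker differences in the values of the zinc genes was not tested.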

How the data were processed

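The authors deposited FPKM values for 50078 RefSeq transcripts of hg19, counted with HOMER over exons of both strands. The submitters' processing notes also name STAR 2.4.0 and DESeq. The file header names further conditions that were not analysed here. Read length is not given in the sources used here. Strand was not used although the kit was directional, so overlapping genes share tags.

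Library totals were recovered from the steps of FPKM multiplied by length, where 100% of 1116 to 1228 low values per library were whole within 0.1. Counting intervals and the floor of 3 tags cover counting error only. The genes that reached an FPKM of 1 in 2 or more libraries were fitted by limma 3.58.1 (R 4.3.3) after taking log2(FPKM + 1) (mean-variance trend, no replicate block, Benjamini-Hochberg adjustment over all 11964 genes). A fold change on this scale understates that of low genes. Replicates correlated at 0.998 on TCP and 0.997 on polymer X. The script was tested on simulated data.

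Every member is named. Full statistics are given for called members, for MTF1, SLC30A1, MT1X and MT2A, and for members with a mean FPKM of at least 10 in either group. SLC30A6, SLC30A7, SLC39A8 and SLC39A11 were given more detail after their values were seen. Of the other lists, called genes are named, at most 5 in each direction; other examples were chosen after their values were seen. Members and lists were chosen with earlier results of these data known. Alternatives were another pseudocount, filter, fold minimum, scaling or choice of transcript, no trend, a replicate block, and each library left out; the tag ratio of MT1B was added after seeing the data. Plots were drawn with matplotlib 3.10.9.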

Additional observations from a re-analysis of the deposited data

How the results depend on the processing

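Of 256 alternative fits of single members, 232 kept their direction and their side of the threshold. In the same direction, 8 lost the adjusted p under 0.05 (5 of SLC30A7, and SLC39A6, SLC39A11 and SLC39A14 under quantile normalization) and 4 gained it (SLC30A4 and SLC30A9 under quantile normalization, SLC30A5 with summed transcripts, SLC39A4 without polymer X replicate 2). The sign changed in 12, all of members that did not pass the main test, and 2 of these had an adjusted p under 0.05 after the change, SLC30A4 with the longest transcript (0.28) and SLC39A1 under quantile normalization (0.20); the cause was not tested. The others were SLC30A4 under median scaling (0.0093), with summed transcripts (0.16) and in 2 of the fits without 1 library (-0.134 to 0.0994), SLC30A9 in 2 of those (-0.0628 to 0.0725), SLC30A5 (0.0118) and SLC39A4 (0.0447) under quantile normalization, and SLC39A9 with summed (0.12) and longest (0.11) transcripts. MT2A stayed called under every alternative run for it. The number of members called higher (1) became 5 and that called lower (1) became 9 with no fold change minimum; when a log2 change of 2 was required, these were 0 and 1. Without 1 library, the number called higher was 0 to 1 (0 without TCP replicate 2 or polymer X replicate 2, when MT1B fell under 2-fold). Members that rose numbered 3, not 5, at a mean FPKM of at least 5, which tests fewer genes, and 4 to 5 without 1 library; those that fell numbered 9 to 10. Over all genes, 1285 called higher became 702 at a mean FPKM of at least 5, 4477 with no fold minimum and 281 at a log2 of 2, and 883 to 1316 without 1 library. Of genes called lower, 1131 became 5212 and 150 under the same 2 fold minimums, and 1053 to 1234 without 1 library. The importer median (-0.12) was 0.0221 under quantile normalization, -0.0553 with the longest transcripts, and -0.181 to -0.0976 without 1 library. The exporter median (-0.046) was -0.0173 with no filter, -0.255 for a mean FPKM of 5 or more, -0.162 under quantile normalization, -0.0133 under median scaling, -0.111 with summed transcripts, and -0.114 to -0.00659 without 1 library. The metallothionein median (-0.49) was -0.134 with no filter, -0.16 under quantile normalization, and -0.561 to -0.427 without 1 library. The log2 ratio of the metallothionein sum (-2.25) was -2.21 under median scaling, -2.17 under quantile normalization, -0.398 without MT2A, and -2.29 to -2.21 without 1 library. The replicate numbers do not pair the libraries by any label, and over genes, deviations from the group means correlated at 0.0927 between same-numbered libraries; with the replicate number as a block, 1 member was called higher, 1 lower, 5 rose and 9 fell. Tags in the single digits limit what can be said of MT1A, MT1E, MT1F, MT1G and MT1H.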
